A study of Mus musculus with 8 samples.

Results

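A set of 10 genes of the epithelial to mesenchymal transition was read on expression arrays of mouse embryonic stem (ES) cells before and after differentiation with retinoic acid (RA). The genes were chosen by name, as *Cdh1*, *Cdh2*, *Epcam*, *Vim*, *Snai1*, *Snai2*, *Zeb1*, *Zeb2*, *Twist1* and *Twist2*, and all 10 were present among the 36406 gene and transcript names of the array. They were measured by 12 of its 55681 probes, since *Cdh2* and *Zeb2* had 2 probes each. All samples were E14Tg2A.4 cells, 1 unmodified ES cell line. Of the 8 biological replicates, 4 were left untreated and 4 were treated for 72 h with 1 µM all-trans RA in medium without leukemia inhibitory factor, which in the study was meant to start neuronal differentiation. The medium given for the untreated cells is not stated in the sources used here, so RA and a change of medium cannot be told apart.

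Epithelial cells are held together by adherens junctions built on E-cadherin, and in the epithelial to mesenchymal transition they lose these contacts, build a vimentin cytoskeleton and become motile. The switch is driven by transcriptional repressors of the Snail, Zeb and Twist families, which bind E-boxes in the promoters of epithelial genes. ES cells in culture express E-cadherin and grow as compact colonies. In the embryo, related transitions take place at gastrulation, in the formation of parietal endoderm and in the neural crest, and exchange of E-cadherin for N-cadherin also accompanies the folding of the neural tube.

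To set the members beside the element that the Snail and Zeb repressors recognise, the 250 bases before the start site of 6 members were searched for the E-box CAGGTG on both strands, which on the strand shown reads CAGGTG or CACCTG. Both spellings are 1 motif read on either strand, so a site was counted once. The sequences are from RefSeq (GRCm38.p6). *Epcam* held 2 matches, starting 187 and 19 bases before the start site, and *Snai1* held 1, starting 126 bases before it. *Vim*, *Twist1*, *Twist2* and the 4 *Zeb2* start sites held none. Of 32851 promoter windows of the same length, 17.2% held at least 1 match and 2.06% at least 2. The windows of *Epcam* and *Snai1*, which hold the matches, and of *Vim* and *Twist2*, the members with the largest increases on their brighter probe, are shown 5′ to 3′ with the E-boxes in capitals. The windows of *Cdh2* and *Zeb1* were not used here, and *Cdh1* and *Snai2* had no window in this table, so the counts describe these 6 members and not all 10. A match is a stretch of letters and no evidence of binding.
Epcam, chr17:87635729-87635978, plus strand: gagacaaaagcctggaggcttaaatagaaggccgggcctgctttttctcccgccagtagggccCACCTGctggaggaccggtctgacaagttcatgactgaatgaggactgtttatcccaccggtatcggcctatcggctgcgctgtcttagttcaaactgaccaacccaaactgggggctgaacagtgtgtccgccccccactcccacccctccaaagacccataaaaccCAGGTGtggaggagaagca
Snai1, chr2:167537945-167538194, plus strand: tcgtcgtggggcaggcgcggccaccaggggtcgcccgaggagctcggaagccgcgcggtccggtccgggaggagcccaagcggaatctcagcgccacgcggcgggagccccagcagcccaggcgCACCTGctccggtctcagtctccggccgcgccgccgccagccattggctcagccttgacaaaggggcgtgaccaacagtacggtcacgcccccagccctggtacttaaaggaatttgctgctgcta
Vim, chr2:13574061-13574310, plus strand: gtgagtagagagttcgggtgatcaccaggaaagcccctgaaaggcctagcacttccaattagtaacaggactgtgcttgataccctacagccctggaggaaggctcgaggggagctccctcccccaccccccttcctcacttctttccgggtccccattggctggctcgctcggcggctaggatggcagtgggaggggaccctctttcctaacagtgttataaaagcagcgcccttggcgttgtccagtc
Twist2, chr1:91801211-91801460, plus strand: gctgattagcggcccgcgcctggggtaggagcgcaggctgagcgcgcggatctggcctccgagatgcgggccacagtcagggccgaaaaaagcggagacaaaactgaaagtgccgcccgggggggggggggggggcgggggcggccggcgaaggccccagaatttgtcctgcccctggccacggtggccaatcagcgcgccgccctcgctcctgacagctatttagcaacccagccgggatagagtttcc

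After RA, 7 of the 10 members were higher, none was lower and 3 did not pass the test. *Cdh2*, *Vim*, *Snai2*, *Zeb1*, *Zeb2*, *Twist1* and *Twist2* were higher on all 4 RA-treated arrays than on all 4 untreated arrays. *Cdh1*, *Epcam* and *Snai1* overlapped between the conditions. A gene was called when limma gave a Benjamini-Hochberg adjusted p under 0.05 over all probes and the change exceeded 1.5-fold, and each gene was taken at its probe with the highest mean. By the same rule 13.9% of all genes were called higher and 22.1% lower, and among the 20397 genes well above background on all 8 arrays the shares were 18.1% and 27.5%. All RA-treated arrays lay above all untreated arrays for 15.3% of genes and below them for 25.3%. Values are log2 intensities, with the 75th percentile of the array at 0. On this scale the median change of all probes was -0.28, against -0.0026 with quantile normalization, and a shift of this size bears on small changes. By probe, 9 of the 12 member probes were called higher and none lower, against 12.9% and 21.6% of all probes. The split of all called genes moved with this scaling, from 5074 higher and 8057 lower to 5697 higher and 5951 lower. The member counts were 7 higher and 0 lower under both. Within each slide, which held 2 arrays of either condition, the 7 members also had positive changes. For the 6 members other than *Twist2*, whose untreated readings are background, they lay between 0.72 and 4.03 on slide 1 and between 0.92 and 3.94 on slide 2. The sources used here call the replicates biological without saying how the cultures were kept apart, so the p-values measure the spread between these 8 samples, which may in part be technical.

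**Figure D1:**
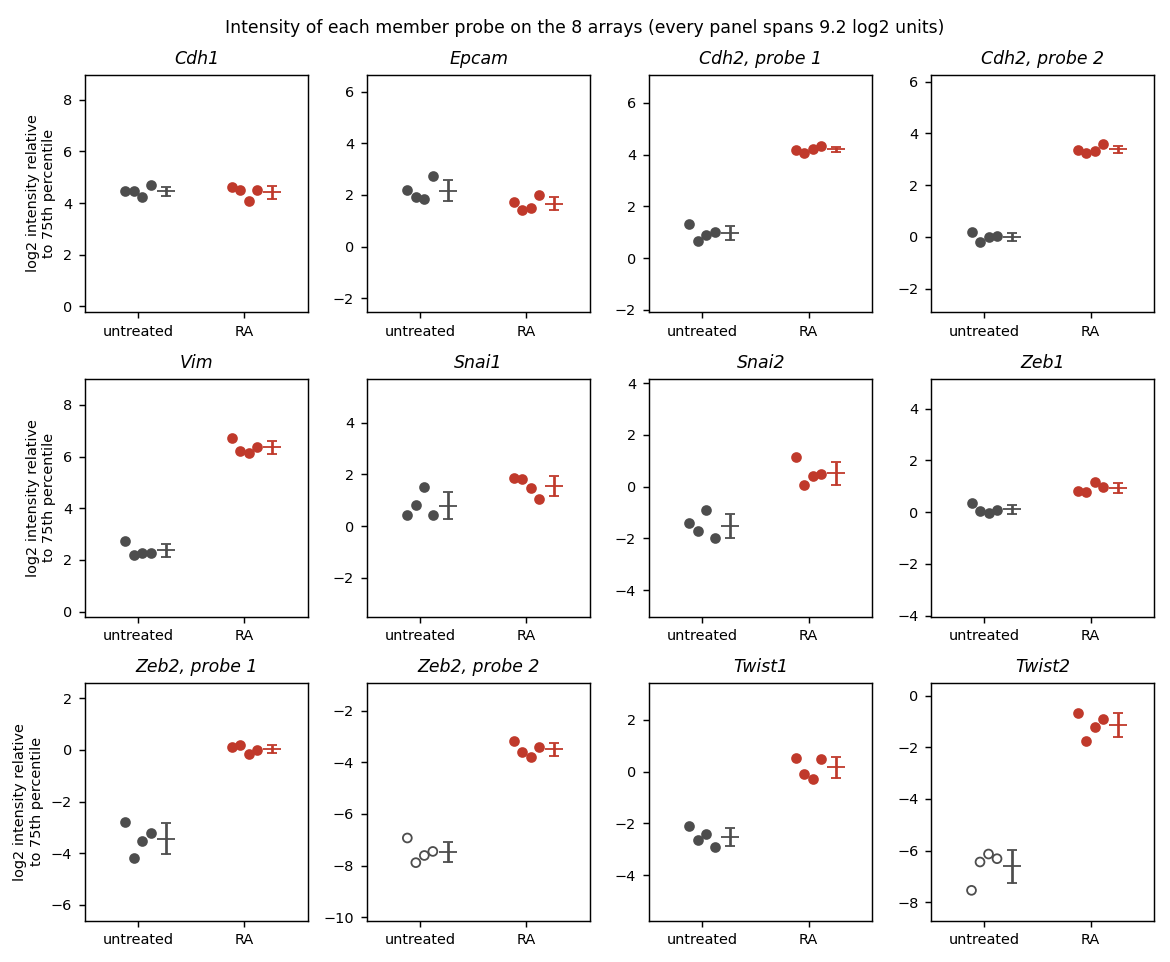
Log2 intensity relative to the array's 75th percentile (vertical axes, each spanning the same range of 9.2 log2 units) of the 12 member probes on the 4 untreated (grey) and 4 RA-treated (red) arrays, with the mean and SD beside the points; probe 1 is the brighter probe of a gene, and open circles mark a condition in which the probe was well above background on no array. The RA-treated arrays lie above the untreated arrays for *Cdh2*, *Vim*, *Snai2*, *Zeb1*, *Zeb2*, *Twist1* and *Twist2*, and overlap with them for *Cdh1*, *Epcam* and *Snai1*.

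The labels were checked on markers of ES cells and of the cell types that such a culture could hold. All 6 ES cell markers were well above background on every untreated array and all 6 fell after RA, among them *Esrrb* (log2 fold change -5.75) and *Tdgf1* (-6.30). The summed intensity of the 6, in units of the 75th percentile, lay between 252 and 355 in untreated cells and between 7.36 and 29.2 after RA. Of 7 neural markers *Nes* (2.10) and *Ncam1* rose, *Tubb3* fell (-2.22) and 4 did not pass, and *Sox1* and *Pax6* were among these. All 11 markers of extraembryonic endoderm rose, led by *Plat* (5.29) and *Foxa2* (5.03), and their summed intensity went from between 31.0 and 36.8 to between 117 and 135. *Lamb1* made up between 85.3% and 91.9% of this sum on the untreated arrays, and the sum of the other 10 markers went from between 2.81 and 5.42 to between 49.7 and 64.1. Of 5 neural crest markers *Tfap2b* and *Ets1* rose and *Foxd3*, the only one called lower, fell. The untreated ES cells already expressed *Foxd3*, well above background on all 4 arrays (0.23 to 1.15), so its fall is no reading of neural crest alone. Its fitted change of -5.92 rests in part on background readings, since it was well above background on 2 of the 4 RA-treated arrays. *Tfap2b* was at background on the untreated arrays. With these set to a floor, the lowest signal of any detected probe on the array, it rose 44.7-fold, an approximate bound. Of 5 mesoderm markers none rose, and *Mesp1*, well above background on 3 untreated arrays and on no RA-treated array, was called lower. With the RA-treated arrays at the same floor it was 2.84-fold lower, again an approximate bound. *Mixl1* was also called lower but was well above background on no array. Of the neural, neural crest and mesoderm markers 28.6%, 40% and 0% were called higher and 14.3%, 20% and 40% lower, on lists of 5 to 7 genes, against 13.9% and 22.1% of all genes. RNA was taken from whole cultures, in which a changed share of cells and a changed amount of RNA per cell cannot be told apart.

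The cadherins are the adhesion molecules of the adherens junction. *Cdh1*, which encodes E-cadherin (probe on chromosome 8, 109193812 to 109193871, plus strand, mm9), was read by 10 spots of the same probe on every array. Its intensities were 4.45, 4.45, 4.22 and 4.68 on the untreated arrays and 4.64, 4.50, 4.06 and 4.51 on the RA-treated arrays, in replicate order. The conditions overlapped, and the highest value was that of an untreated array. The change was -0.02 on the log2 scale (standard error 0.18, adjusted p = 0.921 from limma), with a 95% confidence interval from -0.42 to 0.37, so that a decrease of more than 1.34-fold and an increase of more than 1.30-fold lie outside the interval. Its sign depended on the array and the processing, with values between -0.10 and 0.16 over the alternatives tried, 0.24 within slide 1 and -0.29 within slide 2. The 10 spots also gave the error within an array, an SD between 0.024 and 0.120 log2 units. RA-treated replicate 1 had 8 spots, since 2 of its 10 were flagged as outliers by the Feature Extraction software and left out. The SD between arrays was 0.19 in untreated and 0.25 in RA-treated cells.

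**Figure D2:**
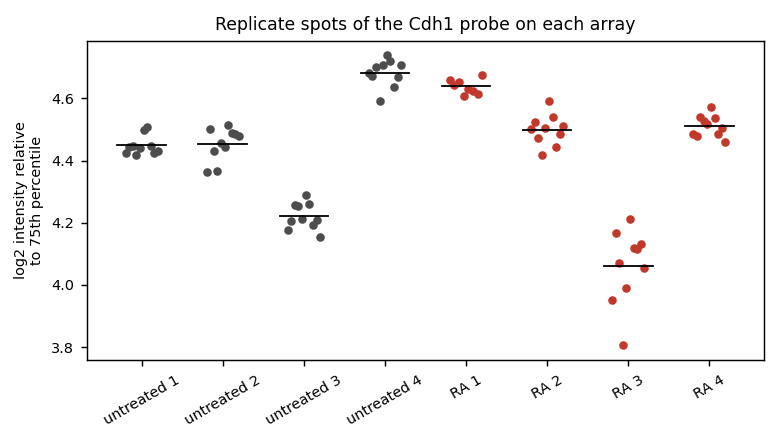
Log2 intensity relative to the 75th percentile (vertical axis) of each spot of the *Cdh1* probe on the 4 untreated (grey) and 4 RA-treated (red) arrays, with the array mean as a line. The array means run from 4.06 to 4.68 and the conditions overlap, and RA-treated replicate 3 has the lowest mean and the widest spread among its spots.

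*Cdh2*, which encodes N-cadherin, rose 9.35-fold (95% confidence interval 7.20 to 12.1). The brighter probe (chromosome 18, 16747559 to 16747618, minus strand) read 1.31, 0.67, 0.90 and 1.01 on the untreated arrays and 4.19, 4.07, 4.21 and 4.32 after RA. The lowest RA-treated array thus lay well above the highest untreated array. This is a log2 fold change of 3.23 with limma (standard error 0.17, adjusted p = 4.01e-06). The second probe (16747386 to 16747445) gave 3.38 with limma (standard error 0.15, adjusted p = 2.17e-06), with untreated values from -0.22 to 0.19 and RA-treated values from 3.25 to 3.57. The probes target different stretches of the same transcript and were hybridized with the same RNA.

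The cadherins were also compared within each array, as the log2 signal of *Cdh2* minus that of *Cdh1*, which no constant scaling of an array can alter. The difference was -3.14, -3.78, -3.32 and -3.67 on the untreated arrays and -0.45, -0.43, 0.15 and -0.19 on the RA-treated arrays. It rose by 3.25 log2 units, or 9.50-fold, from -3.48 ± 0.30 to -0.23 ± 0.28 (SD, n = 4). With the second *Cdh2* probe the rise was 3.41 log2 units. The rise of 3.25 is the fitted change of *Cdh2* (3.23) minus that of *Cdh1* (-0.02, with the interval given above). The value of the difference on an array depends on how brightly each probe hybridizes and is no ratio of transcripts, and the change between the conditions is a description to which no test was applied.

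**Figure D3:**
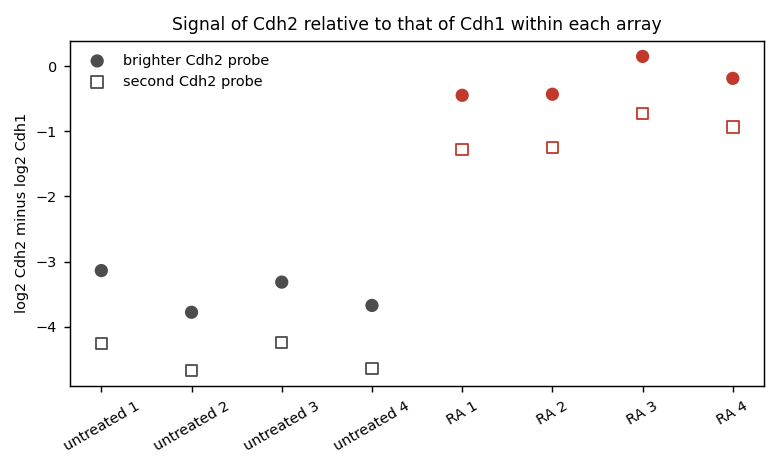
Log2 signal of *Cdh2* minus log2 signal of *Cdh1* (vertical axis) on each of the 4 untreated (grey) and 4 RA-treated (red) arrays, with circles for the brighter *Cdh2* probe and squares for the second. With the brighter probe the RA-treated arrays lie between -0.45 and 0.15 and the untreated arrays between -3.78 and -3.14.

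*Epcam*, a homophilic adhesion molecule of epithelia and of ES cells, was measured by a probe that maps from 88048972 to 88049800 on chromosome 17. It read 2.19, 1.94, 1.84 and 2.72 on the untreated arrays and 1.74, 1.41, 1.51 and 2.01 after RA. RA-treated replicate 4 lay above the lower untreated arrays. The change of -0.50 on the log2 scale (standard error 0.23) did not pass the test (adjusted p = 0.119 from limma). Its 95% confidence interval reached from -1.02 to 0.02, so that a decrease of up to 2.03-fold lies within it. Within the slides the change was -0.14 and -0.87. RA-treated arrays were lower in all 4 same-numbered pairs, by differences of -0.45, -0.53, -0.33 and -0.70, and with the replicate number as a block *Epcam* was again not called (adjusted p = 0.0591 from limma). Relative to the median change of all probes the change was -0.22.

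*Vim*, which encodes the intermediate filament of mesenchymal cells (chromosome 2, 13504232 to 13504291, plus strand), rose 15.8-fold (95% confidence interval 11.7 to 21.3). It read 2.75, 2.20, 2.26 and 2.27 on the untreated arrays and 6.71, 6.22, 6.13 and 6.35 after RA. Replicate 1 was the highest array in both conditions, and among the untreated arrays it stood apart from the other 3. In log2 units the change was 3.98 (standard error 0.19, limma's adjusted p = 2.94e-06), and 4.03 and 3.94 within the slides. Of all genes, 1.00% had a larger increase.

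The Snail proteins are zinc finger repressors that silence E-cadherin. *Snai1* (chromosome 2, 167368073 to 167368132, plus strand) read 0.42, 0.81, 1.51 and 0.43 on the untreated arrays and 1.86, 1.81, 1.47 and 1.05 after RA. Untreated replicate 3 lay above RA-treated replicates 3 and 4. A change of 0.76 on the log2 scale (standard error 0.29) missed the threshold (adjusted p = 0.0693 from limma). Its 95% confidence interval ran from 0.10 to 1.41, and within the slides the change was 0.49 and 1.02. The call rested on single arrays and on the processing. *Snai1* was called without untreated replicate 3 (0.99, adjusted p = 0.0123 from limma), without RA-treated replicate 4 (0.92, adjusted p = 0.0441), with normexp background correction (0.73, adjusted p = 0.0256) and when dim probes were left out (0.76, adjusted p = 0.0452). Over all alternatives its adjusted p lay between 0.0123 and 0.162.

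*Snai2*, which encodes Slug (chromosome 16, 14709361 to 14709420, plus strand), rose 4.08-fold (95% confidence interval 2.57 to 6.47). It read -1.42, -1.73, -0.89 and -1.98 on the untreated arrays and 1.13, 0.05, 0.41 and 0.49 after RA, with no overlap. In log2 units the change was 2.03 (standard error 0.29, limma's adjusted p = 0.000671).

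The Zeb proteins carry zinc finger clusters at both ends that bind paired E-boxes. *Zeb1* (chromosome 18, 5774613 to 5774672, plus strand) rose 1.77-fold, the smallest of the 7 increases that were called. It read 0.36, 0.03, -0.02 and 0.08 on the untreated arrays and 0.82, 0.77, 1.18 and 0.97 after RA. Its change was 0.82 in log2 units (standard error 0.16, limma's adjusted p = 0.00300), and at a threshold of 2-fold *Zeb1* was not called, which left 6 members higher.

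*Zeb2* rose 11.1-fold (95% confidence interval 7.14 to 17.2) on its brighter probe (chromosome 2, 44842774 to 44842833, minus strand). This probe read -2.79, -4.20, -3.53 and -3.23 on the untreated arrays and 0.11, 0.18, -0.15 and -0.01 after RA. The untreated arrays were more widely spread (SD 0.59) than the RA-treated arrays (SD 0.14). Its change was 3.47 in log2 units (standard error 0.28, limma's adjusted p = 2.81e-05), and 2.68 with normexp background correction, which by construction adds an offset and shrinks the changes of dim probes. The second probe (44840038 to 44840097) was well above background on all 4 RA-treated arrays and on no untreated array. With the untreated arrays set to a floor, its rise was 6.67-fold, an approximate bound. For this bound, each untreated array was given the lowest signal of any detected probe, or the signal of the probe itself if that was higher. The floor is no strict detection limit, since a probe can lie above it and still not be well above background. The adjusted p of 6.17e-06 from limma belongs to the fitted log2 fold change of 3.98, which uses the background readings, and not to the bound.

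The Twist proteins are basic helix-loop-helix factors of mesoderm and of cranial mesenchyme. *Twist1* (chromosome 12, 34644411 to 34644470, plus strand) rose 6.44-fold (95% confidence interval 4.34 to 9.56). It read -2.11, -2.64, -2.43 and -2.92 on the untreated arrays and 0.54, -0.08, -0.30 and 0.49 after RA. The change on the log2 scale was 2.69 (standard error 0.25, limma's adjusted p = 5.90e-05).

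*Twist2* (chromosome 1, 93744519 to 93744577, plus strand) was well above background on the 4 RA-treated arrays but on none of the untreated arrays. It read -7.54, -6.44, -6.13 and -6.31 on the untreated arrays, which are readings of the background, and -0.69, -1.75, -1.22 and -0.93 after RA. With the approximate bound formed as for the second *Zeb2* probe, the rise was 30.8-fold. On untreated replicates 2 and 3 its own readings lay above the floors of -6.84 and -6.28 and were used, though they were not well above background. The fitted log2 fold change was 5.46 (standard error 0.34, limma's adjusted p = 9.27e-06). It was 2.71 with normexp background correction and 2.81 on the values that the authors had processed. The cause of the smaller change on the authors' values was not tested.

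**Figure D4:**
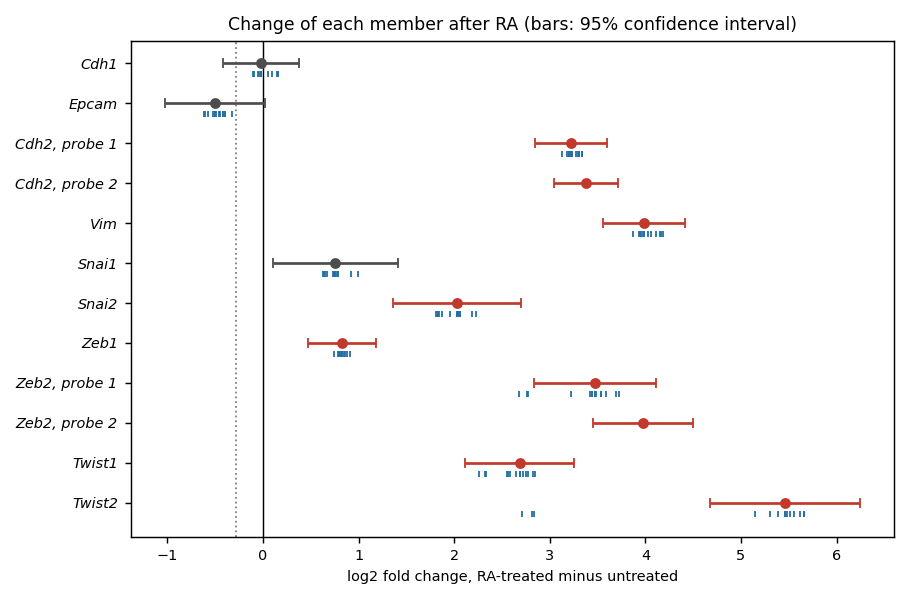
Log2 fold change after RA (horizontal axis) of each member probe, with the 95% confidence interval from limma as a bar; red marks called increases and dark grey members that did not pass. Blue ticks under a gene's brighter probe give the same change under the 16 alternatives that recompute it, and the dotted line is the median change of all probes, -0.28. The ticks of *Twist2* run from 2.71 to 5.66, and those of *Cdh1* lie on both sides of 0.

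The 3 pairs of related repressors were set side by side within each array, as was done for the cadherins. These comparisons were added after the values had been seen and are descriptions, with no test. The log2 signal of *Zeb2* minus that of *Zeb1* lay between -4.23 and -3.15 on the untreated arrays and between -1.32 and -0.60 after RA, a rise of 2.65. For *Twist2* minus *Twist1*, *Twist2* was set on each untreated array to the floor described above, or to its own reading where that was higher. The values there, between -3.89 and -2.88, are thus approximate. After RA the difference lay between -1.67 and -0.92, a rise of 2.26 with this floor. This rise depended on the processing. With normexp background correction *Twist2* changed by 2.71 and *Twist1* by 2.26, and on the authors' values by 2.81 and 2.32, which are closer together. For *Snai2* minus *Snai1* it lay between -2.54 and -1.84 and then between -1.76 and -0.55, a rise of 1.27. In each pair the conditions did not overlap.

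Other genes of the pathway were read from 5 lists, on which counts and medians are given with no test of a list. Of 26 epithelial genes 11 were higher, 6 were lower and 9 did not pass, with a median log2 fold change of 0.46 against -0.28 over all genes. The share called higher was 42.3%, against 13.9% of all genes, and the share called lower was 23.1%, near the 22.1% of all genes. The increases were led by the keratins of simple epithelia, *Krt8* (5.63), *Krt19* (5.56) and *Krt18* (5.12), and included 3 claudins, *Cldn3*, *Cldn6* and *Cldn7*, and the tight junction genes *Ocln* and *Marveld2*. The genes that fell, in a share near that of all genes, included *Ovol1* (-2.05), a repressor that maintains epithelia, *Rab25* (-1.33), a GTPase of apical recycling, *Elf3* (2.00-fold), a transcription factor of epithelia, and the epithelial splicing factors *Esrp1* and *Esrp2*. *Esrp2* was not called with the replicate block (adjusted p = 0.0761 from limma, against 0.0476 without it). *Cldn4* and *Cdh3* were among those that did not pass. At a threshold of 2-fold 3 epithelial genes were lower.

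Of 24 mesenchymal genes 18 were higher, none was lower and 6 did not pass, with a median log2 fold change of 2.77 against -0.28 over all genes. The share called higher was 75%, against 13.9% of all genes, and none was lower, against 22.1%. *Acta2* (9.19) and *Tagln* (6.87), of the contractile apparatus, and *Col3a1* (7.05), a fibrillar collagen, changed most. *Postn*, *Tnc* and *Prrx1* were called higher and had untreated arrays at background only, and with these at their approximate bounds the median is again 2.77. *Fn1*, which encodes fibronectin, had a log2 fold change of -0.68, *Cdh11* of 0.07 and *S100a4* of 0.87, and none of these passed. *Fn1* was lower in all 4 pairs of same-numbered arrays, with differences of -0.32, -0.35, -0.95 and -1.10. The arrays of pairs 1 and 2 shared a slide and those of pairs 3 and 4, with the larger differences, did not. With the replicate number as a block *Fn1* was called lower (adjusted p = 0.0475 from limma, against 0.139 without the block). With the slide as a block 0 mesenchymal genes were called lower. The list shares 5 genes with the fibroblast markers and 2 with the smooth muscle markers. Of its 17 other genes, 12 were higher. Fibroblast markers moved with this list, 6 of 7 being higher, among them *Dcn* (8.07), while *Thy1* was at -0.08 and *Postn* and *Lum* had untreated arrays at background only. Their summed intensity went from between 1.06 and 1.84 to between 30.8 and 49.2. That of the 4 smooth muscle markers, all higher, went from between 2.16 and 3.91 to between 255 and 468. The part of such cells, or of the endoderm markers above, in the change of the members was not tested.

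The Snail, Zeb and Twist factors work with corepressors, E proteins and kinases. Of 23 genes on a list of such partners and of genes that act on them, 12 were higher and 5 were lower, with a median of 0.65. The list mixes genes that work with the factors and genes that act against them, so its counts give no direction for their activity. It includes the *Id* genes, *Gsk3b*, *Btrc* and *Fbxl14*, of which *Id3*, *Gsk3b* and *Btrc* were among those higher and *Fbxl14* did not pass. The shares of the list were 52.2% and 21.7%, against 13.9% and 22.1% of all genes, so the share called lower was near that of all genes. *Lats2* (3.54), a kinase that acts on Snail, *Id2* (2.81) and *Id1* (2.66) rose most. The Id proteins bind E proteins and keep them from DNA, and *Tcf12*, which encodes an E protein, rose as well, while *Tcf3* (0.45) and *Tcf4* (-0.10) did not pass. The corepressor gene *Ctbp2* fell by 1.91 on the log2 scale and *Hdac2* by 0.79, whereas *Ctbp1*, *Kdm1a* and *Rcor1* rose. *Id4* fell (-1.15).

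Of 19 genes of the signals that induce the transition, 12 were higher and 3 were lower, with a median of 1.19. The shares were 63.2% and 15.8%, against 13.9% and 22.1% of all genes. *Bmp2* (7.27, well above background on 1 untreated array), *Tgfb2* (4.98), a TGF-beta ligand, and *Hmga2* (4.05), a chromatin factor downstream of TGF-beta, rose most. The receptor *Tgfbr2* and the signal transducers *Smad2*, *Smad3* and *Smad4* were also higher. *Jag1* (-1.78), a Notch ligand, *Notch1* (-1.49) and *Tgfb1* (-0.97) fell. Of 8 genes of the complex that links cadherins to actin 5 were higher (62.5%, against 13.9% of all genes) and none was lower, with a median of 0.89. *Ctnnd2* (3.02) and *Ctnna2* (2.45), the neural forms of delta- and alpha-catenin, rose most and *Ctnnd1* rose by 1.03. *Ctnnb1*, which encodes beta-catenin, had a change of 0.44 with no overlap between the conditions (adjusted p = 0.0268 from limma). It did not pass because the change was under 1.5-fold.

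**Figure D5:**
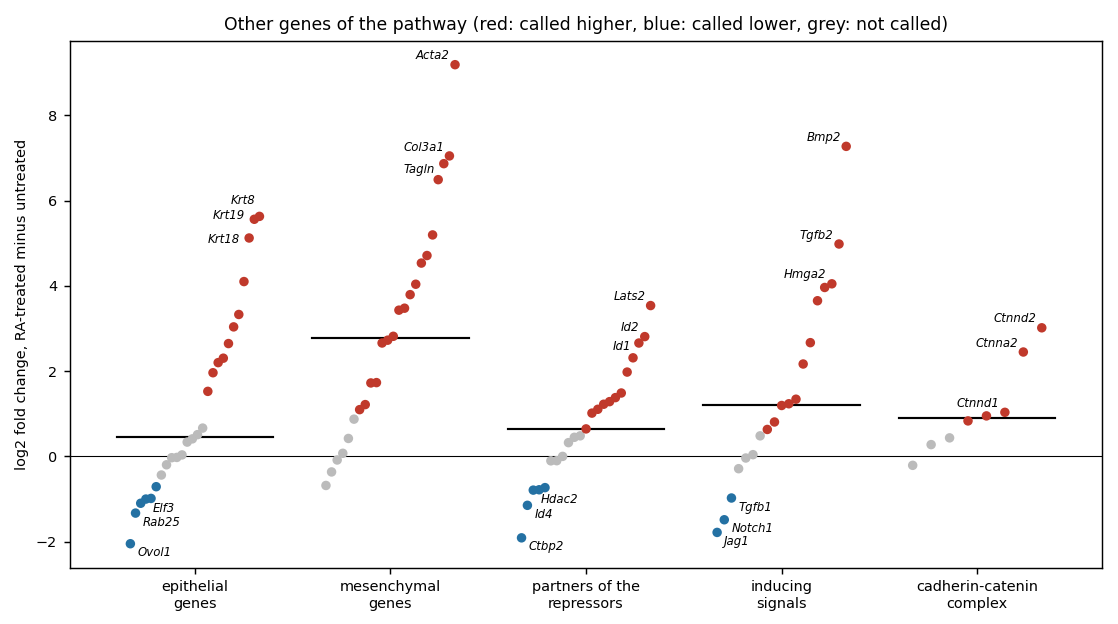
Log2 fold change after RA (vertical axis) of each gene in the 5 lists, ordered by size within a list, with the list's median as a line; red marks genes called higher, blue genes called lower and grey genes that did not pass, and the genes with the largest changes are named. The mesenchymal list has 18 of 24 genes in red and none in blue, and the epithelial list has 11 in red and 6 in blue.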

How the data were processed

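RNA of 4 untreated and 4 RA-treated cultures was hybridized to Agilent 1-colour mouse arrays, 4 arrays to a slide, with both conditions balanced over the 2 slides. The authors deposited the Feature Extraction (version 10.7.3.1) output, from which the processed intensity, corrected for background and detrended but not scaled between arrays, was used. A second table that the authors deposited holds log2 values with one distribution on all arrays; its normalization is not given in the sources used here, and it served as an alternative. Between 56.7% and 62.7% of spots were well above background and none was saturated. The number of arrays limits the precision.

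In R (version 4.3.3), the 75th percentile of the 59305 spots that are not controls was subtracted from the log2 intensities of each array, outlier spots (124 to 145 per array) were left out, and spots of a probe were averaged. A gene took its probe with the highest mean. Conditions were compared with limma (version 3.58.1) without a block or a filter on dim probes, with Benjamini-Hochberg adjustment, taking adjusted p under 0.05 and changes over 1.5-fold, the limits in the study's methods. The steps were tested on simulated data. Same-numbered arrays of the conditions correlated in their deviations at 0.186, 0.189, 0.104 and 0.152 over 27504 probes, and the highest correlation between different numbers was 0.142, above that of replicate 3. Each exceeded 0.1, the limit set for pairing, which the labels do not state. The highest correlation between different numbers exceeded it too, so the limit does not set pairs apart. Same-numbered arrays 1 and 2 shared a slide and those numbered 3 and 4 did not, and the part of the slide in these correlations was not tested. The calls reported come from the fit without the block, and values with it are given where it changes a call. Alternatives were quantile normalization, normexp background correction alone and with quantile normalization, the authors' processed values, a filter on dim probes, replicate or slide blocks, the mean over probes, a 2-fold threshold and leaving out each array.

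The members and lists were chosen with earlier results of these data known. Named were all members, up to 3 higher and 3 lower genes of each of 5 lists and up to 2 of each of 7 marker lists, by size of change with no overlap between conditions; other list genes were named after their values had been seen. For 5 genes an older array name was used. Probe positions are on mm9; exons were not annotated here.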

Additional observations from a re-analysis of the deposited data

Results flagged for a closer look

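Among 92 groups of 4 arrays examined for the member probes and the named genes of the lists, 6 had an array that stood apart from the other 3 by Dixon's test, where chance alone, which flags about 5% of groups, gives 4.6. Of the members only *Vim* was among them, with 2.75 on untreated replicate 1 against 2.20 to 2.27 on the other untreated arrays (log2 intensities, scaled as above). The others were *Acta2* on untreated replicate 3 (-1.54 against -2.60 to -2.57), *Ctnna2* on untreated replicate 3 (-3.11 against -4.27 to -4.08), *Foxa2* on untreated replicate 1 (0.0090 against -1.04 to -0.91), *Lats2* on RA-treated replicate 2 (0.11 against 0.38 to 0.40) and *Ctnnd1* on RA-treated replicate 1 (4.58 against 4.24 to 4.27).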

How the results depend on the processing

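The number of members called higher was 7, and between 6 and 8 over the 17 alternatives, and no member was called lower under any of them. The calls of the other 9 members held in all alternatives with a threshold of 1.5-fold. *Snai1* (0.76, not called) was called with normexp background correction (0.73) and without dim probes (0.76), and with each array left out its change lay between 0.63 and 0.99. Under the replicate block, which pairs same-numbered arrays, 7 members were higher, *Snai1* stayed uncalled (0.76, adjusted p = 0.0726 from limma) and 1 mesenchymal gene, *Fn1*, was lower, against 0, while *Esrp2* was no longer called lower. The block changed no other call of the members or of the pathway lists and moved no other count by over 1.5 times. With the slide as a block 7 members were higher. The rise of *Cdh2* relative to *Cdh1* lay between 3.12 and 3.36. At 2-fold, a stricter limit by construction, 3 epithelial genes (of 6) and 2 genes of the partner list (of 5) were lower and 3 genes of the cadherin complex (of 5) higher. Elsewhere the cause was not tested. Signal over background limits *Twist2* and the second *Zeb2* probe to approximate bounds.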
